A study of Mus musculus with 11 samples.

Results

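The genes described here build the node of Ranvier, the domains on either side of it and the axon initial segment of sensory neurons. They are *Nfasc*, *Nrcam*, *Cntn1*, *Cntn2*, *Cntnap1*, *Cntnap2*, *Ank3*, *Sptbn4* and *Gldn*, 9 of the 36670 genes in the deposited table. They were chosen by name for their known role, with earlier results of these data known. RNA-Seq was run on DRGs (dorsal root ganglia, where the somata of touch and pain neurons lie) from 11 adult mice with 1 library per mouse. The groups were 3 WT mice labelled control (the paper calls them noninjured naive mice), 3 WT mice labelled 4 weeks of PTX, 3 *Gpr37l1* KO mice labelled control, and 2 *Gpr37l1* KO mice labelled 4 weeks of PTX. PTX is paclitaxel, a chemotherapy drug that binds microtubules and causes painful neuropathy. GPR37L1 is a GPCR of the satellite glial cells that wrap DRG neurons. The KO mice carried the tm1Lex allele in every cell, on a C57BL/6 background per the paper's methods. In each group, the mouse numbered 3 was labelled female and the others male, so sex and number cannot be told apart.

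In a myelinated axon, action potentials are regenerated at nodes of Ranvier, short gaps in the myelin where sodium channels are packed together. At each side of the node lies the paranode, where the edge of the myelin is joined to the axon, and beyond it the juxtaparanode, where potassium channels sit under the myelin. The axon initial segment, near the cell body, has much the same scaffold as the node, and in many types of neuron, though not all, action potentials start there. Most of these proteins are made in the neuron, and some, gliomedin and 1 form of neurofascin among them, are made by Schwann cells.

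Ankyrin G, the product of *Ank3*, is the scaffold that holds channels and adhesion molecules at nodes and initial segments, and it binds neurofascin and NrCAM through a short motif in their cytoplasmic tails, known by its amino acids as FIGQY. The coding sequence of that motif is shown for these adhesion genes and for their relative *L1cam* because it is the feature that ties the adhesion molecules to the scaffold. Each window is 27 bases of the last coding exon in GENCODE release M21 (GRCm38, the same assembly as mm10), and capitals mark the motif's codons:
Nfasc, chr1:132570501-132570527, minus strand, exon 32 of 32: ggctccTTTATTGGCCAGTACactgtc
Nrcam, chr12:44598480-44598506, plus strand, exon 31 of 31: ggctccTTTATTGGCCAATACagtggt
L1cam, chrX:73855116-73855142, minus strand, exon 29 of 29: ggctctTTCATCGGCCAGTACagtggc

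The motif began at codon 1315 of 1347 in *Nfasc*, at codon 1224 of 1256 in *Nrcam* and at codon 1227 of 1259 in *L1cam*. It was found in frame in 7 of 22500 genes with an annotated coding sequence (0.0311%), and in 2 of the 9 genes. Among annotated transcripts with a coding sequence, 5 of 6 of *Nfasc* and 4 of 11 of *Nrcam* held it. The deposited values are per gene. The levels below thus do not separate forms with and without the motif, or the neuronal from the glial neurofascin. As whole ganglia were used, the levels do not separate neuronal from glial transcripts of the other genes either.

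The libraries held 52735648 to 80348732 estimated counts, and 4 of 11 fell below 60000000: WT control 1, WT PTX 3 and both KO PTX libraries. The same 4 libraries had the highest summed levels of 8 spinal cord glia markers, 6.85 to 22.5 FPKM against 2.27 to 4.33 FPKM in the other libraries, with 4 of the 8 markers at 0 in some library. All 11 sensory neuron markers were above 0 in every library, and their sum was 5298 to 6034 FPKM. The sum of 8 skeletal muscle markers ran from 3.85 FPKM in WT PTX 3 to 658 FPKM in KO control 2. WT control 1 stood apart from the rest: the row CT010467 read 14803 FPKM in it and 897 to 2889 FPKM in the other 10 libraries. *Gpr37l1* itself measured 27.6 to 35.7 FPKM in WT controls, 14.6 to 31.7 in WT PTX mice, 0.21 to 0.29 in KO controls, and 0.60 and 1.15 in KO PTX mice. It fell by 7.03 on the log2 scale (SE 0.37, n = 3 and 3) in KO against WT controls (adjusted p = 4.53e-05, edgeR), as labelled.

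All 9 genes passed the filter of a mean of 0.5 FPKM over the 11 libraries, which left 15087 genes for testing. FPKM accounts for the length of each gene's transcripts as well as for depth, so levels of different genes can be set side by side. In WT controls, the adhesion proteins of the paranode and juxtaparanode stood highest. *Cntn1* averaged 32.2 FPKM ± 5.06 (SD, n = 3), *Cntnap1* 29.4 ± 3.44, *Cntn2* 24.1 ± 0.83 and *Cntnap2* 15.4 ± 2.39. *Nfasc* followed at 12.9 ± 0.23 FPKM. *Ank3* averaged 7.74 ± 1.44 FPKM, *Gldn* 6.16 ± 0.495, *Nrcam* 6.09 ± 0.79 and *Sptbn4* 5.06 ± 0.59.

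Neighbours in that order did not always keep it in single mice. *Cntn2* lay above *Cntnap2*, *Cntnap2* above *Nfasc*, and *Nfasc* above *Ank3* in 11 of 11 libraries. *Cntn1* was above *Cntnap1* in 10 of 11 libraries, *Cntnap1* above *Cntn2* in 9, *Ank3* above *Gldn* in 9 and *Nrcam* above *Sptbn4* in 10. *Gldn* and *Nrcam* could not be ordered: *Gldn* was higher in 6 of 11 libraries, and the mean difference in WT controls was 0.07 FPKM. The spread over all 11 libraries was smallest for *Nfasc*, with a CV of 4.34%, lower than that of all but 2.58% of the genes tested. The CVs of the other 8 genes ran from 7.68% in *Sptbn4* to 13.2% in *Gldn*, beside a median of 11.3% for all genes tested.

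**Figure D1:**
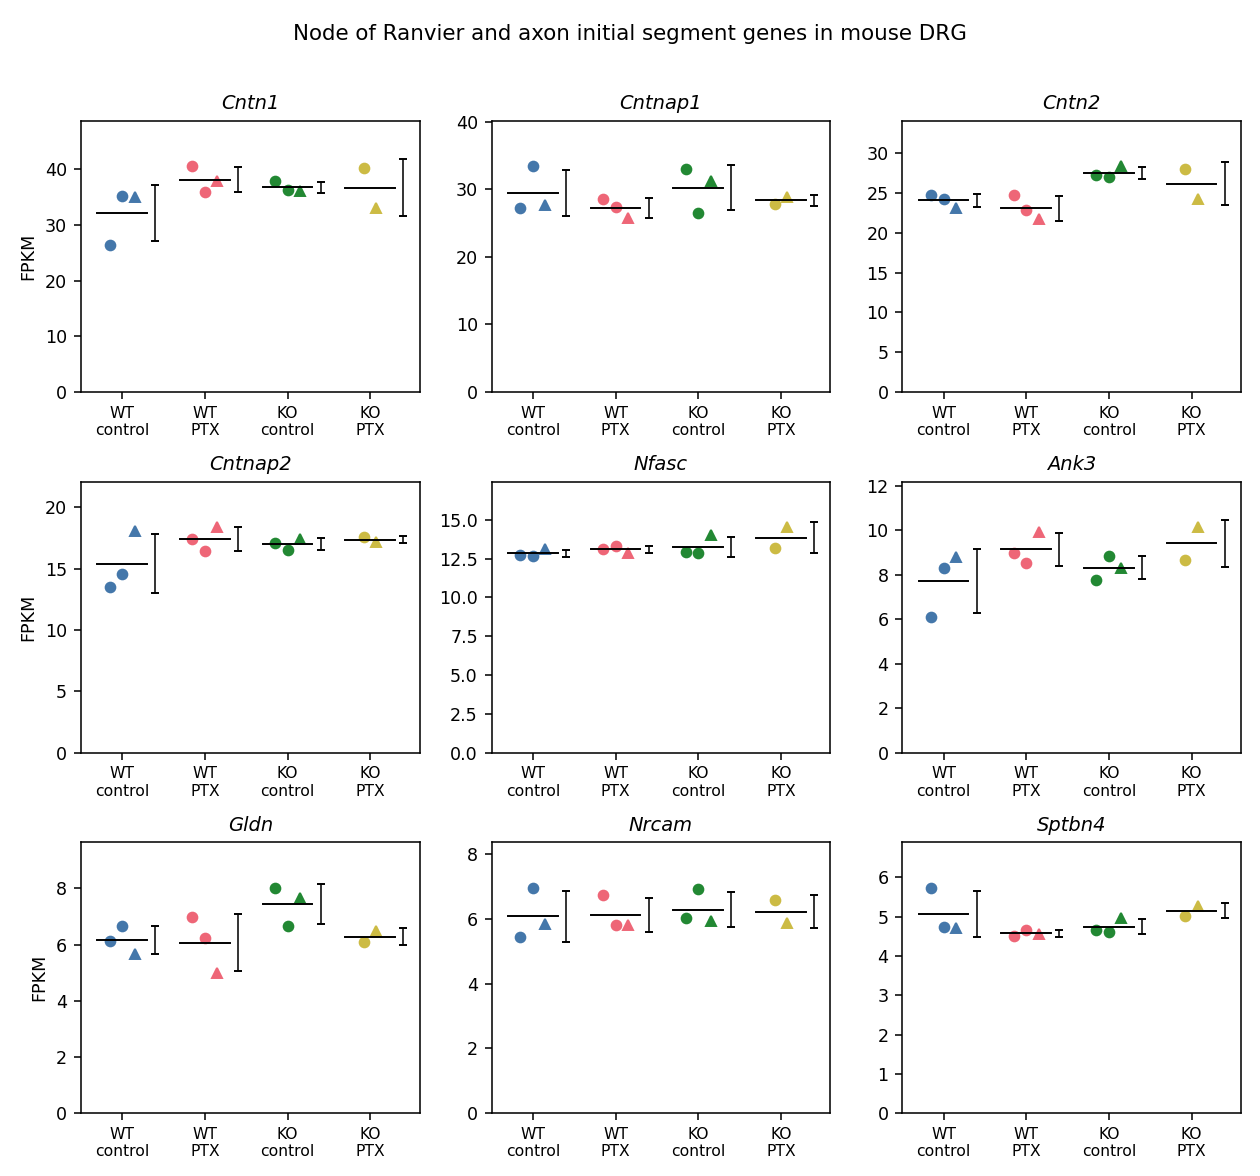
Level of each of the 9 genes in FPKM (y axis, from 0) in the 4 groups (x axis). Each point is 1 mouse (circles male, triangles female), each horizontal line a group mean, and each bar to the right of the points the SD (n = 3, and n = 2 for KO PTX). *Nfasc* stays between 12.7 and 14.6 FPKM in all 11 mice, and the KO control points of *Cntn2* lie above all WT points.

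The first question was whether these genes differed after PTX in WT mice. None of the 9 genes passed the threshold of an adjusted p under 0.05 (edgeR's quasi-likelihood test, Benjamini-Hochberg adjustment over 15087 genes), where the percent called among all genes was 0.00663%. At an unadjusted p under 0.05, 1 of the 9 genes was counted, beside 13.5% of all genes, and DESeq2 called none of the 9 and 2.05% of all genes. The log2 fold changes ran from -0.15 to 0.24, and the 95% confidence intervals of all 9 genes stayed within -0.35 and 0.49, a change of at most 1.41-fold. The median size of the log2 fold change, sign aside, was 0.12 for the 9 genes and 0.14 for all genes tested. These p-values measure the spread between single mice of 1 experiment. In whole ganglia, fewer cells of a type and less RNA per cell cannot be told apart.

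At the paranode, contactin (*Cntn1*) and Caspr (*Cntnap1*) form the axonal side of the junction with the glial neurofascin. *Cntn1* read 26.3, 35.2 and 35.0 FPKM in WT controls 1 to 3 and 40.5, 36.0 and 37.9 FPKM in WT PTX mice 1 to 3. The groups did not overlap, which held for 2 of the 9 genes (*Cntn1* higher and *Sptbn4* lower) and for 14.2% of all genes. WT control 1 lay far below the other 2 controls. The log2 fold change was 0.24 (SE 0.11, adjusted p = 0.38), and it was 0.11 without WT control 1. *Cntnap1* read 27.3, 33.4 and 27.6 FPKM in controls and 28.6, 27.4 and 25.7 FPKM after PTX, with a log2 fold change of -0.12 (SE 0.095). Its groups overlapped.

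At the juxtaparanode, Cntn2 and Caspr2 (*Cntnap2*) hold the potassium channels in place. *Cntnap2* read 13.5, 14.6 and 18.1 FPKM in WT controls and 17.4, 16.5 and 18.4 FPKM after PTX, with the third control among the PTX values. It had the lowest unadjusted p of the 9 genes in this comparison (0.043, log2 fold change 0.18, SE 0.079, adjusted p = 0.36). *Cntn2* read 24.8, 24.3 and 23.2 FPKM in controls and 24.8, 22.9 and 21.7 FPKM after PTX (log2 fold change -0.06, SE 0.064). The controls and PTX mice of *Cntn2* overlapped.

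Ankyrin G and beta IV spectrin (*Sptbn4*), which links ankyrin to the actin cytoskeleton, are the scaffold of the node and the initial segment. *Ank3* read 6.11, 8.30 and 8.82 FPKM in WT controls and 8.97, 8.52 and 9.95 FPKM after PTX. *Sptbn4* read 5.74, 4.73 and 4.71 FPKM in controls and 4.50, 4.67 and 4.55 FPKM after PTX. WT control 1 was the lowest of all 11 libraries for *Ank3* and the highest for *Sptbn4*. The PTX values of *Sptbn4* lay below those of every control (4.67 against 4.71 FPKM at the nearest), while the groups of *Ank3* overlapped. The log2 fold change of *Ank3* was 0.24 (SE 0.11, adjusted p = 0.38) and 0.12 without WT control 1. That of *Sptbn4* was -0.15 (SE 0.091, adjusted p = 0.47) and -0.03 without WT control 1.

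Neurofascin and NrCAM are the adhesion molecules of the node, and gliomedin is the Schwann cell ligand that gathers them there. *Nfasc* read 12.7, 12.7 and 13.1 FPKM in WT controls and 13.1, 13.3 and 12.9 FPKM after PTX. *Nrcam* read 5.45, 6.97 and 5.84 FPKM in controls and 6.74, 5.82 and 5.80 FPKM after PTX. *Gldn* read 6.14, 6.66 and 5.67 FPKM in controls and 6.99, 6.24 and 4.98 FPKM after PTX. In each of these genes the groups overlapped, and the log2 fold changes were 0.02 (SE 0.056), 0.003 (SE 0.099) and -0.03 (SE 0.11). The interval of *Nfasc*, from -0.10 to 0.15, was the narrowest of the 9.

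In KO mice, PTX against control was compared in 2 against 3 libraries, and both KO PTX libraries were among the 4 of low total and high spinal cord glia markers. Again 0 of 9 genes were called, beside 0.00663% of all genes. None had an unadjusted p under 0.05, beside 4.32% of all genes, and DESeq2 called 0 of the 9 and 0.186% of all genes. The intervals of all 9 genes lay within -0.51 and 0.42 on the log2 scale. *Cntn1* read 37.9, 36.3 and 36.1 FPKM in KO controls and 40.3 and 33.1 FPKM in KO PTX mice, with a log2 fold change of -0.001 (SE 0.12). Its KO PTX mice thus lay on both sides of the KO controls.

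*Gldn* and *Sptbn4* were the genes whose KO groups did not overlap (2 of 9), beside 21.6% of all genes. *Gldn* read 8.03, 6.66 and 7.67 FPKM in KO controls and 6.08 and 6.49 FPKM in KO PTX mice (log2 fold change -0.22, SE 0.13). *Sptbn4* read 4.66, 4.60 and 4.96 FPKM in KO controls and 5.01 and 5.28 FPKM in KO PTX mice (log2 fold change 0.12, SE 0.10). With the spinal cord glia score as a covariate, the value of *Sptbn4* was -0.09 and that of *Gldn* was -0.16. With low library total as a covariate, they were -0.05 and -0.08. Both KO PTX libraries and no KO control were of low total. The glia marker sum was 9.92 and 22.5 FPKM in KO PTX mice and 2.75 to 4.33 FPKM in KO controls. Within KO mice these covariates thus cannot be separated from PTX. The part of the 4 libraries in the values of *Sptbn4* and *Gldn* was not tested.

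The remaining genes in KO mice were *Cntn2*, *Cntnap1*, *Cntnap2*, *Ank3*, *Nfasc* and *Nrcam*. *Cntn2* was 27.1 to 28.4 FPKM in KO controls and 28.1 and 24.3 FPKM in KO PTX mice. *Cntnap1* was 26.5 to 32.9 FPKM in KO controls and 27.8 and 28.9 FPKM in KO PTX mice. *Cntnap2* was 16.5 to 17.5 FPKM in KO controls and 17.6 and 17.2 FPKM after PTX. *Ank3* was 7.79 to 8.83 FPKM in KO controls and 8.67 and 10.2 FPKM after PTX. For all of these the groups overlapped, and the log2 fold change of *Ank3* was 0.14 (SE 0.13). *Nfasc* was 12.8 to 14.0 FPKM in KO controls and 13.2 and 14.6 FPKM after PTX, and *Nrcam* was 5.93 to 6.92 FPKM and then 6.59 and 5.87 FPKM.

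The question of whether the PTX difference depended on the genotype was tested as the difference of the KO and WT fold changes. None of the 9 genes was called, where 0.00663% of all genes were, none had an unadjusted p under 0.05 (6.30% of all genes), and DESeq2 called none of the 9 and 0.0795% of all genes. The values ran from -0.24 in *Cntn1* (SE 0.17) to 0.27 in *Sptbn4* (SE 0.14), with intervals between -0.62 and 0.57. PTX and control groups did not overlap, in either direction, in 14.2% of all genes in WT and 21.6% in KO. *Sptbn4* was the gene of the 9 whose PTX mice all lay below the controls in WT and all above them in KO. Its test of the difference gave an unadjusted p of 0.075 and an adjusted p of 0.72 (edgeR), and the value was 0.15 without WT control 1.

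**Figure D2:**
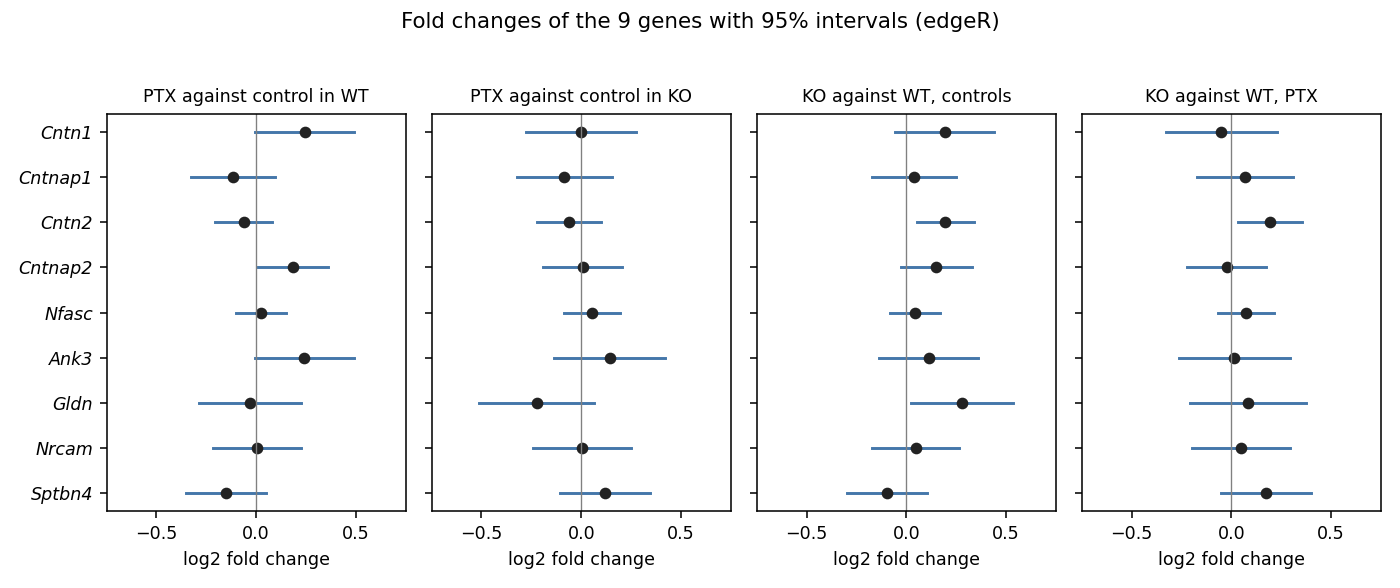
Log2 fold change (x axis) of the 9 genes (y axis) in the 4 comparisons between pairs of groups, from edgeR with labelled sex as a covariate. Points are estimates, lines are 95% confidence intervals and the vertical line marks 0. None of the points passes an adjusted p of 0.05, and the intervals lie between -0.51 and 0.53.

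The loss of *Gpr37l1* was compared in controls, in PTX mice and over both. Among controls, 0 of 9 genes were called, beside 0.00663% of all genes, and 2 had an unadjusted p under 0.05, beside 7.54% of all genes. DESeq2 called 0 of the 9 and 0.278% of all genes. The median of the log2 fold changes, sign aside, was 0.11 for the 9 genes and also for all genes tested. The value was above 0 in 8 of the 9 genes, beside 7662 of the 15087 genes tested, and in 6 of the 9 without WT control 1.

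*Cntn2* had the lowest unadjusted p of the 9 genes in KO against WT mice. It read 24.8, 24.3 and 23.2 FPKM in WT controls and 27.2, 27.1 and 28.4 FPKM in KO controls, so that every KO control lay above every WT control. The control groups did not overlap in 2 of the 9 genes, *Cntn1* and *Cntn2*, beside 9.28% of all genes. In PTX mice it read 24.8, 22.9 and 21.7 FPKM in WT and 28.1 and 24.3 FPKM in KO, and 1 KO PTX mouse lay among the WT values. The log2 fold change was 0.19 (SE 0.064, unadjusted p = 0.013, adjusted p = 0.66) in controls and 0.19 (SE 0.072, unadjusted p = 0.022, adjusted p = 0.99) in PTX mice. Over both treatments it was 0.19 (SE 0.048, interval 0.09 to 0.30), with an unadjusted p of 0.0023 that ranked 30 of 15087 genes and an adjusted p of 1.00. Under the 21 alternatives the value ran from 0.16 to 0.22, and the adjusted p was 0.15 at the lowest. The difference kept its sign under all of these but did not pass the adjustment for the number of genes.

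*Cntn2* and *Nfasc* are neighbours on chromosome 1, and both lie on the chromosome of the deleted gene. *Cntn2* spans chr1:132509427-132543256 and *Nfasc* chr1:132564690-132741778, both on the minus strand in the files' mm10 coordinates, with 21.4 kb between them. *Gpr37l1* spans chr1:135160234-135167681, which is 2.42 Mb from *Nfasc* and 2.62 Mb from *Cntn2*. DNA of the donor strain around the targeted allele and the loss of *Gpr37l1* cannot be told apart in KO against WT mice. *Nfasc* read 12.7, 12.7 and 13.1 FPKM in WT controls and 12.9, 12.8 and 14.0 FPKM in KO controls, with overlapping groups and a log2 fold change of 0.04 (SE 0.056). Over both treatments that of *Nfasc* was 0.06 (SE 0.043).

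*Gldn* was the other gene with an unadjusted p under 0.05 among controls. It read 6.14, 6.66 and 5.67 FPKM in WT controls and 8.03, 6.66 and 7.67 FPKM in KO controls, and 1 KO control had the level of the highest WT control. The log2 fold change was 0.28 (SE 0.11, unadjusted p = 0.036, adjusted p = 0.66). In PTX mice it was 0.08 (SE 0.13), with 6.99, 6.24 and 4.98 FPKM in WT against 6.08 and 6.49 FPKM in KO.

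The partners of these molecules in the membrane did not show a called difference in KO controls either. *Cntn1* read 37.9, 36.3 and 36.1 FPKM in KO controls, above the 35.2 FPKM of the highest WT control, with a log2 fold change of 0.19 (SE 0.11, adjusted p = 0.68) and of 0.06 without WT control 1. *Cntnap2* gave 0.15 (SE 0.079), *Ank3* 0.11 (SE 0.11), *Nrcam* 0.05 (SE 0.098), *Cntnap1* 0.04 (SE 0.095) and *Sptbn4* -0.10 (SE 0.091). Without WT control 1, *Ank3* was at -0.01 and *Sptbn4* at 0.02.

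Among PTX mice, 0 of 9 genes were called in KO against WT, beside 0.0133% of all genes. *Cntn2* alone had an unadjusted p under 0.05, beside 3.55% of all genes, and DESeq2 called 0 of the 9 and 0.0597% of all genes. *Sptbn4* was the gene whose groups did not overlap, beside 20.2% of all genes: 5.01 and 5.28 FPKM in KO against 4.50, 4.67 and 4.55 FPKM in WT (log2 fold change 0.17, SE 0.10). With the spinal cord glia score as a covariate this value was -0.03. The glia marker sum was 9.92 and 22.5 FPKM in KO PTX mice and 2.37 to 6.85 FPKM in WT PTX mice. Among PTX mice the score thus cannot be separated from genotype. The intervals of the 9 genes lay between -0.33 and 0.40.

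With the treatments pooled, KO against WT was above 0 in 9 of 9 genes, from 0.04 to 0.19, and in 7649 of the 15087 genes tested. The value of *Sptbn4* changed sign under 2 of the 21 alternatives and that of *Cntn1* under 1. None of the 9 was called, beside 0.0133% of all genes. *Cntn2* was the gene counted at an unadjusted p under 0.05, beside 3.75% of all genes, and DESeq2 called 0 of the 9 and 0.179% of all genes. With the genotypes pooled, PTX against control ran from -0.13 in *Gldn* to 0.19 in *Ank3* (SE 0.084, unadjusted p = 0.045, adjusted p = 0.52). None of the 9 was called there, beside 0.0133% of all genes, *Ank3* was the gene counted at an unadjusted p under 0.05, beside 9.36% of all genes, and DESeq2 called 0 of the 9 and 0.829% of all genes. The pooled groups overlapped in all 9 genes. They did not overlap in 0.325% of all genes for KO against WT and in 0.742% for PTX against control.

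WT control 1 bore on several of these genes at once, and the long genes were its low ones. This pattern was noticed after the values were seen. The library was the lowest of all 11 for *Cntnap2*, *Ank3*, *Cntn1* and *Nrcam*, which span 2245, 628.7, 290.8 and 273.1 kb of the chromosome and are the longest of the 9. Its log2 ratio to the median of the other 10 libraries was -0.32 for *Cntnap2*, -0.48 for *Ank3*, -0.45 for *Cntn1* and -0.10 for *Nrcam*. For *Sptbn4*, which spans 91.3 kb, it was 0.32, the highest of the 11 libraries. Over all genes tested, the median of this ratio in WT control 1 was 0.13 for 7545 genes under 20 kb and -0.06 for 3664 genes of 20 to 50 kb. It was -0.17 for 1917 genes of 50 to 100 kb, -0.17 for 1203 genes of 100 to 200 kb and -0.25 for 758 genes over 200 kb. *Sptbn4* thus lay opposite in sign to the median of genes of its length. *Nfasc*, which spans 177.1 kb, was at -0.02. Why long genes read low in this library was not tested.

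**Figure D3:**
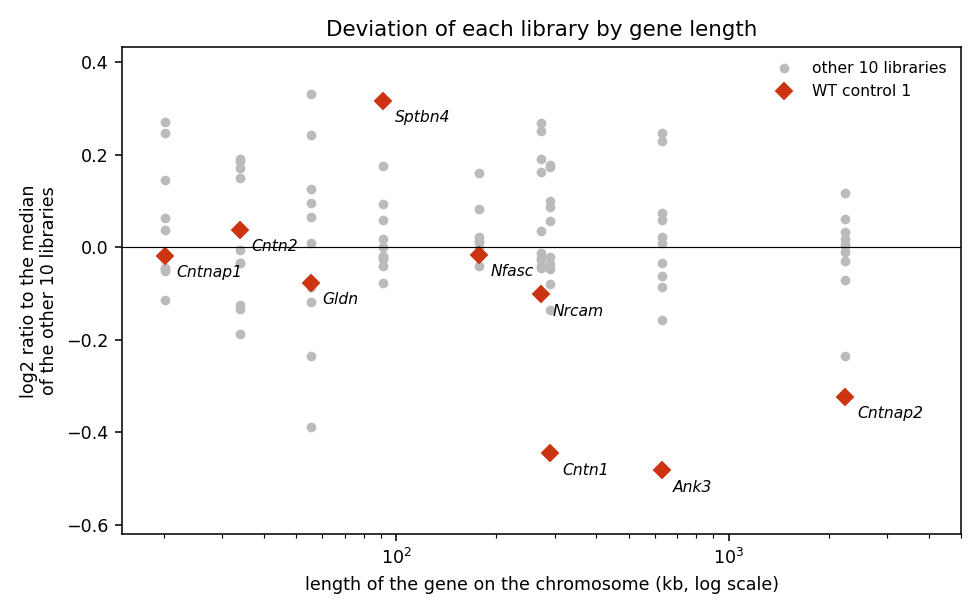
Log2 ratio of each library to the median of the other 10 libraries (y axis, from TMM-scaled counts) for the 9 genes by their length on the chromosome (x axis, kb, log scale). Diamonds are WT control 1 and grey points the other 10 libraries. For *Cntnap2*, *Ank3*, *Cntn1* and *Nrcam* the diamond lies below every grey point, for *Sptbn4* it lies above them, and for the other 4 genes it lies among them.

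The scaffold and its partners were also compared as ratios of levels within each mouse, as a description. The *Cntnap1* to *Cntn1* ratio averaged 0.925 ± 0.125 (SD, n = 3) in WT controls, 0.72 ± 0.042 in WT PTX mice, 0.82 ± 0.078 in KO controls and 0.78 ± 0.13 (n = 2) in KO PTX mice. All 3 WT PTX mice (0.68 to 0.76) lay below the lowest WT control (0.79). The highest ratio, 1.04, was that of WT control 1, in which *Cntn1* read low. Taken singly, 14.2% of all genes did not overlap in this comparison, and the share over other pairs of genes was not counted. The *Cntnap2* to *Cntn2* ratio averaged 0.64 ± 0.12 in WT controls and 0.62 ± 0.0093 in KO controls. The *Sptbn4* to *Ank3* ratio was 0.94 in WT control 1 and 0.46 to 0.60 in every mouse of the other 3 groups. WT controls 2 and 3 lay within that range too, the lower of them at 0.53.

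The genes whose levels followed each of the 9 most closely were found by Pearson's r of log2 library-scaled counts over the 11 libraries. All 11 points come from the same few groups and share the libraries named above, so these are descriptions. *Ank3* went most closely with *Ebf1*, a transcription factor (r = 0.99, rho = 0.98), and with *Fgf13*, which binds sodium channels (r = 0.97, rho = 0.91). Without the 2 libraries farthest from its median, WT control 1 and KO PTX 3, these were 0.98 and 0.90. *Cntnap2* went with *Ntrk3*, the neurotrophin receptor of large sensory neurons (r = 0.98, rho = 0.88, and 0.81 without WT controls 1 and 2), and with *AI593442* (r = 0.97, and 0.74 without them). *Cntn1* went with *Cltc*, the clathrin heavy chain (r = 0.98, rho = 0.94), and with *Cacnb4*, a calcium channel subunit (r = 0.97, rho = 0.96), and both stayed above 0.93 without WT control 1 and WT PTX 1.

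*Sptbn4* went with *Bop1* (r = 0.98), which acts in ribosome assembly, and *Mrpl4* (r = 0.97), a protein of the mitochondrial ribosome. Without WT control 1 and KO PTX 3 these were 0.90 and 0.86. *Nrcam* went with *Rasa2* (r = 0.94) and *Frmd4a* (r = 0.92), which were 0.87 and 0.80 without KO control 2 and WT control 2. *Gldn* went with *Gm43254* (r = 0.87) and *Atcay* (r = 0.86), which were 0.60 and 0.76 without WT PTX 3 and KO control 1. *Cntn2* went with *Gm2573* (r = 0.87) and again *Atcay* (r = 0.83), which were 0.89 and 0.90 without KO PTX 2 and KO control 3. *Cntnap1* went with *C77080* (r = 0.88) and *Ergic1* (r = 0.86), which were 0.64 and 0.71 without WT control 2 and KO control 1. *Nfasc* went with *Zfpm1* (r = 0.91) and *Bhlhe40* (r = 0.89), and its values dropped furthest, to 0.36 and 0.41 without KO PTX 3 and KO control 3.

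The rest of the apparatus was described by 6 lists of 71 genes, of which 70 were in the table and 65 were tested. None of the 65 was called in any of the 7 comparisons by edgeR, beside 0.00663% to 0.0133% of all genes. In WT PTX mice against controls, 13 of the 65 had an unadjusted p under 0.05, 9 above and 4 below 0, beside 13.5% of all genes. In KO against WT controls these were 7 of 65, beside 7.54% of all genes. DESeq2 called 1 of the 65 in WT PTX mice, beside 2.05% of all genes. This was the potassium channel subunit *Kcnab1*, named after its value was seen (adjusted p = 0.045, DESeq2). It read 15.1 to 19.3 FPKM in WT controls and 18.7 to 22.3 FPKM in WT PTX mice, with overlapping groups (edgeR log2 fold change 0.33, SE 0.095, adjusted p = 0.25).

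For the sodium and potassium channels of node and initial segment, PTX against control in WT had a median log2 fold change of 0.01 over 9 genes, of which 5 lay above 0, and 4 did without WT control 1 (median -0.01). Among those of high level were the sodium channel beta subunits *Scn4b* (67.5 FPKM ± 11.1 in WT controls, 70.4 ± 1.55 after PTX) and *Scn2b* (13.9 ± 2.50 and 12.0 ± 1.34). *Scn8a*, the main sodium channel of mature nodes, was named after its values were seen. It read 8.52 to 8.86 FPKM in WT controls and 9.05 to 9.67 FPKM after PTX (log2 fold change 0.09, SE 0.055, adjusted p = 0.48, edgeR). Its groups did not overlap, which held for 14.2% of all genes. The largest change of this list was that of *Scn1a*, also named after its values were seen (log2 fold change 0.35, SE 0.12, adjusted p = 0.31, edgeR). *Scn1a* read 5.32 to 8.60 FPKM in WT controls and 8.23 to 9.33 FPKM after PTX, with overlapping groups.

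Of the 10 initial segment scaffold and organizer genes tested, 5 lay above 0, with a median of -0.01, and 4 did without WT control 1 (median -0.004). The highest were *Fgf13* (143 FPKM ± 20.2 in WT controls, 166 ± 14.7 after PTX, log2 fold change 0.21, SE 0.084, adjusted p = 0.35), and the microtubule-linked *Mapre3* and *Ndel1*, whose means were 52.1 and 42.1 FPKM in controls and 51.3 and 41.2 FPKM after PTX. Of the 10 spectrin, ankyrin and protein 4.1 genes, 8 lay above 0 (median 0.06), and 7 did without WT control 1 (median 0.03). *Sptan1*, the alpha spectrin partner of beta IV spectrin, had a log2 fold change of 0.03 (SE 0.060), *Epb41l3*, the paranodal protein 4.1 that anchors Caspr, 0.23 (SE 0.11), and *Sptbn1* 0.18 (SE 0.087).

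In the juxtaparanodal list, 11 of 13 genes lay above 0 in WT PTX mice, with a median of 0.13, and 9 of 13 without WT control 1 (median 0.11). These are genes of potassium channels, their beta subunits and proteins found in complex with them. The 3 of highest level were *Kcnab2* (149 FPKM in WT controls, 136 after PTX), *Lgi3* (32.7 and 34.9) and *Kcna6* (32.3 and 29.5). In KO mice the PTX comparison had 6 of 13 above 0 and a median of -0.01.

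The Schwann cell microvilli and nodal matrix list differed in sign, with 9 of 14 genes below 0 in WT PTX mice (median -0.09), 10 of 14 without WT control 1 (median -0.14), and 11 of 14 below 0 in KO PTX mice (median -0.11). Over both genotypes, 5 of the 14 had an unadjusted p under 0.05, beside 9.36% of all genes, the median of the list was -0.13, and none was called. Moesin (*Msn*), an actin linker of the microvilli, averaged 81.8 FPKM in WT controls and 82.3 after PTX. The proteoglycan *Sdc3* averaged 41.7 and 36.2 FPKM (log2 fold change -0.20, SE 0.071, adjusted p = 0.30). *Slc9a3r1* averaged 29.2 and 27.6 FPKM. The summed level of 11 markers of myelinating Schwann cells, given beside this list, was 1870 to 2292 FPKM in WT controls, 1629 to 2025 in WT PTX mice, 1809 to 2091 in KO controls, and 1317 and 2057 in KO PTX mice. The 5 fibroblast markers were all above 0 FPKM in every library. Their log2 fold changes after PTX lay below 0 in 5 of 5 in KO mice (median -0.55, 4 at an unadjusted p under 0.05), in 2 of 5 in WT mice (median 0.13), and in 5 of 5 over both genotypes (median -0.21). Their summed level was 110 to 173 FPKM in WT controls, 119 to 144 in WT PTX mice, 142 to 178 in KO controls, and 88.4 and 150 in KO PTX mice. The part of either marker list in these values was not tested.

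The 9 other adhesion genes tested had a median of 0.17 in WT PTX mice, with 7 above 0, and of 0.02 in KO against WT controls. Without WT control 1 these medians were 0.11, with 6 above 0, and -0.01. *L1cam*, which shares the ankyrin-binding codons printed above, stood far above *Nfasc* and *Nrcam*, at 70.9 FPKM in WT controls and 74.1 after PTX (log2 fold change 0.06, SE 0.072). *Ncam1* averaged 16.0 and 15.2 FPKM. *Chl1*, in which no annotated coding transcript held the motif, averaged 8.87 and 7.06 FPKM (log2 fold change -0.31, SE 0.18, adjusted p = 0.47).

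**Figure D4:**
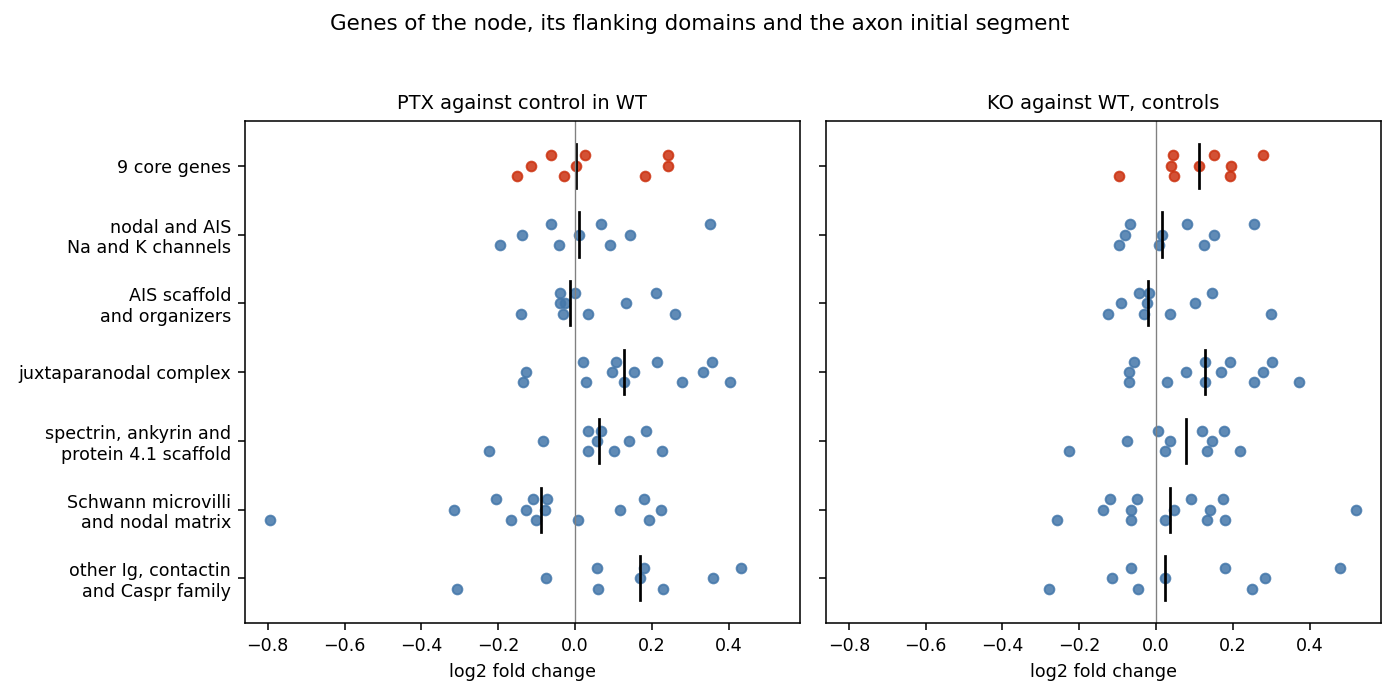
Log2 fold change (x axis) of single genes (points) in each list of node and initial segment genes (y axis), for PTX against control in WT (left) and KO against WT controls (right). Black bars are list medians and the grey line marks 0. The juxtaparanodal list has its median at 0.13 on both sides, and no gene shown passes an adjusted p of 0.05 in edgeR's test.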

How the data were processed

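Groups, sex and replicate numbers were taken from the sample labels. KO PTX mice are numbered 2 and 3 as in the descriptions (1 and 2 in the titles). The libraries were poly(A) and strand-specific. The submitters' processing notes name cutadapt, FastQC, HISAT2 and StringTie on mm10, and versions, roles, annotation release and use of strand in counting are not given in the sources used here. The authors deposited, for 36670 genes, FPKM values scaled for gene length and library size, and estimated count columns without normalization. The counts are whole numbers but were treated as estimated counts, since 1369 genes of WT control 1 have a count of 4 and 573 have a count of 3. They were used rounded to whole numbers.

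Genes with a mean of at least 0.5 FPKM were tested with edgeR 4.0.16 (R 4.3.3, TMM, quasi-likelihood, 11 libraries in 1 fit of 4 groups with labelled sex as a covariate), with Benjamini-Hochberg adjustment. The SE was taken as log2 fold change over root F. Alternatives used DESeq2 1.42.0 and limma 3.58.1 (on log2(FPKM + 1) and log2(FPKM + 0.1)), other scalings and filters, no sex term, a replicate block and each library left out. The code was tested on simulated data. Python 3.11.15 was used for the rest.

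Named genes were the 9 genes, *Gpr37l1*, the 3 of highest mean FPKM in each list and any gene past the threshold, and the 2 genes most alike each of the 9; some genes under this rule are not reported here. The genes and lists were chosen with earlier results of these data known. Estimated counts give no fragment-level counting error. Genes overlapping on the same or the other strand (*Gm10538* at *Nfasc*, *Gldnos* at *Gldn*, *Ccr10* and *Plekhh3* at *Cntnap1*, *Gm20479* at *Sptbn4*) could share reads, so these levels are uncertain to that extent. *Cntnap2*, *Ank3* and *Nrcam* contain further small annotated genes. By identifier, 36532 genes were found in GENCODE M21.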

Additional observations from a re-analysis of the deposited data

Results flagged for a closer look

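*Sptbn4*, the gene of beta IV spectrin, was marked because its PTX mice lay below the controls in WT and above them in KO. Every WT PTX mouse (4.50 to 4.67 FPKM) lay below every WT control (4.71 to 5.74 FPKM). Every KO PTX mouse (5.01 and 5.28 FPKM) lay above every KO control (4.60 to 4.96 FPKM). Groups did not overlap, in either direction, in 14.2% of all genes in WT and 21.6% in KO. The share of all genes separated in opposite directions was not counted. For *Sptbn4*, the difference between the genotypes in the PTX fold change was 0.27 on the log2 scale (SE 0.14, adjusted p = 0.72 by edgeR). It ranged from 0.05 to 0.35 over 21 alternatives. It was 0.05 with the spinal cord glia score as a covariate, 0.09 with low library total as a covariate and 0.15 without WT control 1. In KO mice, both PTX libraries and no control had low totals and high glia scores, so neither covariate could be separated from PTX there.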

How the results depend on the processing

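None of the 9 genes was called under any of the 21 alternatives in any of the 7 comparisons, the lowest adjusted p being 0.11. This covers the replicate block, with which 0 of 9 were called. Same-numbered mice of different groups had correlations of their deviations from -0.15 to 0.25 over 15 pairs (mean 0.08), 7 of them over 0.1. For mice of different number they were -0.25 to 0.16 over 30 pairs (mean -0.04), 4 of them over 0.1. The main fit did not pair the mice by number, and whether same-numbered mice share a source of variation was not tested further. With each library left out in turn, 0 of the 9 were called. Of 1323 recomputed fold changes, 1277 lay within 1 SE of the value reported and 46 moved further: 14 with the spinal cord glia score and 10 with low library total as a covariate (both chosen after seeing the data), and the others on leaving out a WT control or a KO PTX library. The order of levels changed only without WT control replicate 1, where *Nrcam* ranked 7 and *Gldn* 8. Over all genes, edgeR called 1, 1, 1, 2, 1, 2 and 2 (PTX in WT, PTX in KO, KO against WT in controls and in PTX mice, PTX by genotype, KO against WT pooled, PTX pooled), and DESeq2 309, 28, 42, 9, 12, 27 and 125. The other alternatives called 0 to 30, 1 to 7, 1 to 4, 2 to 7, 1 to 6, 2 to 5 and 0 to 18. The cause of these differences was not tested.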
